A study of Drosophila melanogaster with 16 samples.

Results

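The 10 genes described here are those that stood lower, or higher, than the wm4h control in all 3 mutant genotypes of a Drosophila melanogaster RNA-seq series at nuclear cycle 14, the blastoderm stage at which the zygotic genome takes over. They are 10 of the 17753 genes in the count table and were picked on the NC14 comparisons themselves, for one direction in every mutant. Dscam2, CG6567, pyd3, CanB, nrv3, Cap-H2 and Adsl were lower, and Pex19, Smyd4-1 and FBgn0010549, a transporter gene given here by its FlyBase identifier, were higher. In the fit used here, 14 genes passed an adjusted p of 0.05 in 1 direction in all 3 NC14 comparisons, and all 10 genes were among them. The NC14 values below are therefore a description of the choice, and the tests are on the later stage, St7-8. Those tests are not independent of the choice, since the fit takes 1 estimate of spread per gene from the libraries of both stages. A fit to the St7-8 libraries alone is therefore given with the counts.

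The series holds 16 libraries of total RNA from whole embryos, 2 for each of 4 genotypes at St7-8 and at NC14 (stage 5). The mutants were homozygous for the Jasper alleles Su113 or Su140, or for the Su(var)3-9 allele 06, and are called Su113, Su140 and Su(var)3-9 here. The control, wm4h;+/+, is called wm4h. All 4 genotypes, the control included, carry wm4h, an X-chromosome inversion that places the white gene beside heterochromatin and gives it variegated expression. Each library came from a pool of 50 embryos sorted by hand after 1 h of egg laying and 2 h of ageing at 25 °C. The labels give that protocol for all libraries and mention only NC14 in the sorting. Each mutant is a single allele in a single line, so an effect of the allele and one of anything else fixed in that line cannot be told apart. Nothing in the labels says that 2 pools of a group came from separate parents, so the p-values measure the spread between pools, which may be technical.

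JASPer is the partner protein of the JIL-1 histone kinase and binds active chromatin through its PWWP domain. Su(var)3-9 is a histone methyltransferase of heterochromatin, named for suppressing the variegation that wm4h shows. The 10 genes encode proteins of unrelated kinds: a neuronal adhesion molecule, an ion pump subunit, a calcium-dependent phosphatase subunit, metabolic enzymes, a chromosome condensation factor, a peroxisome biogenesis factor, a SET-domain protein and a membrane transporter.

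Library totals ran from 43466130 to 92790237 counts, so 3 counts, the limit that a count of 0 allows, lay between 0.0299 and 0.0573 CPM (read counts divided by the scaled library size). Transcripts of the mutated genes were present in every genotype. Jasper read 98.9 to 161 CPM in the Su113 and Su140 libraries, against 125 to 168 CPM in wm4h. Su(var)3-9 read 114 to 167 CPM in its own mutant, against 93.2 to 136 CPM in wm4h, and it shares exons with eIF2gamma. Gene totals do not show a lesion within a transcript, so they neither check nor contradict the genotype labels.

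Stage markers differed between the libraries labelled St7-8, as the plot of stage markers shows. Genes of cellularization (5 of 6 listed were tested, and Sry-alpha had no count) summed to 2260 and 1270 CPM in Su113, 3130 and 2470 CPM in Su140 and 70.7 and 71.3 CPM in Su(var)3-9, against 1680 and 5290 CPM in wm4h. All 9 later zygotic genes, such as the homeotic gene Ubx, were tested and summed to 299 and 118 CPM in Su113, 589 and 568 CPM in Su140 and 1200 and 1300 CPM in Su(var)3-9, against 669 and 317 CPM in wm4h. Replicate 2 of wm4h at St7-8 thus read like the wm4h NC14 libraries, which summed to 4200 and 4820 CPM and to 372 and 345 CPM on the same lists. Between St7-8 and NC14 in wm4h, edgeR called 0 genes of 12398 (1395 had an unadjusted p under 0.05) and DESeq2 called 462. Mhc, the muscle myosin heavy chain and a marker of much older embryos, read 86.8 and 447 CPM in Su113 and 0.335 and 412 CPM in Su140 at St7-8, and 4.76 and 0.805 CPM in Su(var)3-9, against 9.62 and 0.398 CPM in wm4h. All 5 older-embryo markers were tested, and their sum at St7-8 was 294 and 685 CPM in Su113, 307 and 847 CPM in Su140 and 330 and 289 CPM in Su(var)3-9, against 249 and 119 CPM in wm4h. At NC14 it was 190 and 204 CPM in Su113, 105 and 69.9 CPM in Su140, 222 and 337 CPM in Su(var)3-9 and 330 and 259 CPM in wm4h. Only the sums of Su113 and Su140 replicate 2 at St7-8 lay above those of all NC14 libraries. More libraries stood out by the mean log2 CPM of these markers, which no NC14 library had above 1.68. At St7-8 that mean was 4.72 and 5.59 in Su113 and 0.88 and 6.28 in Su140. It was 2.88 and 1.58 in Su(var)3-9, against 2.77 and 0.66 in wm4h. The adult female list summed to at most 1.36 CPM in any library. The part of embryo stage in the results below was not tested beyond the fits with a marker score named with them, and fewer cells of a type and less RNA per cell cannot be told apart in these bulk samples.

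**Figure D1:**
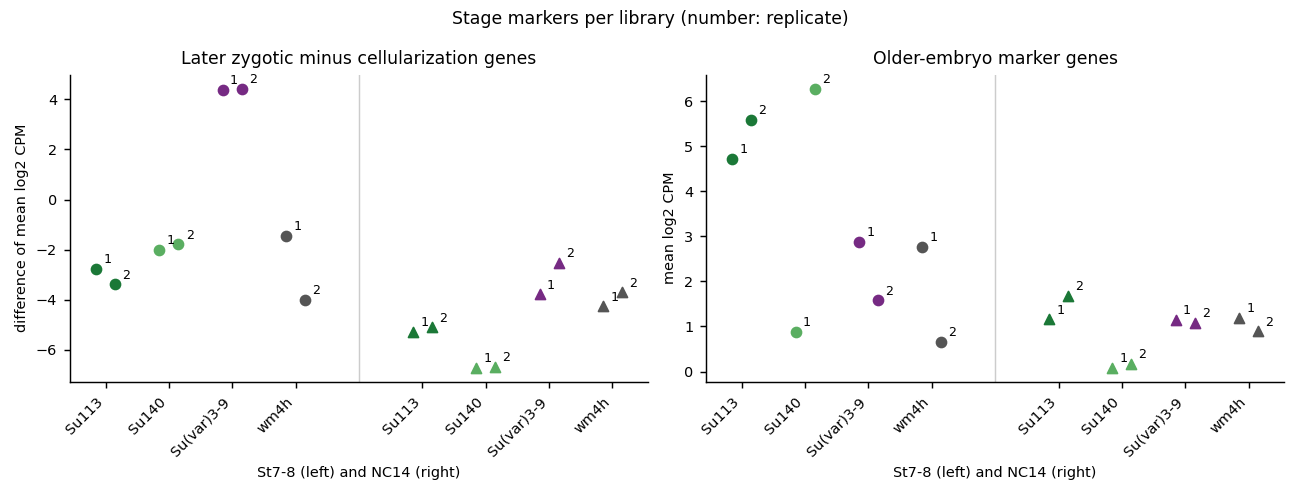
Stage markers in each library, with St7-8 libraries as circles on the left and NC14 libraries as triangles on the right of each panel. The left panel plots the mean log2 CPM of later zygotic genes minus that of cellularization genes (4.39 and 4.43 in Su(var)3-9 at St7-8, against -1.44 and -3.99 in wm4h), and the right panel plots the mean log2 CPM of older-embryo markers (6.28 in Su140 St7-8 replicate 2 and 0.88 in replicate 1).

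At St7-8, the 7 genes that were lower at NC14 lay below both wm4h libraries in all 3 mutants. Without overlap of libraries, 26.6% of all tested genes were lower in the Su113 libraries, 24.5% in those of Su140 and 31.4% in those of Su(var)3-9. Of the 3 genes that were higher at NC14, 2 lay above both wm4h libraries in Su113 (21.8% of all genes), 3 in Su140 (18.2%) and 3 in Su(var)3-9 (33.9%). By edgeR's quasi-likelihood test with Benjamini-Hochberg adjustment over 12398 genes, 6 genes fell and 1 rose in Su113, where 2.85% of all genes passed (1.0% lower and 1.85% higher). In Su140, 5 fell and 0 rose, where 1.15% of all genes passed (0.774% lower and 0.379% higher). The 3 genes that were higher at NC14 all had an unadjusted p under 0.05 in Su140, as did 2273 of all 12398 genes. DESeq2 called all 3, beside 7.95% of all genes. In Su(var)3-9, 7 fell and 3 rose, where 24.8% of all genes passed (15.9% lower and 8.94% higher). The median log2 fold change of the 7 genes was -1.92 for Su113, -1.60 for Su140 and -1.16 for Su(var)3-9, beside -0.09, -0.05 and 0.04 over all genes tested.

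The 3 comparisons share the same 2 wm4h libraries, so their values are not independent of each other. Without wm4h St7-8 replicate 2, which reads like NC14, the test called 3 genes for Su113, 2 for Su140 and 3 for Su(var)3-9, beside 0.218%, 0.161% and 7.65% of all genes in those comparisons. Without that library and Su140 St7-8 replicate 2 together, a choice made after the data were seen, it called 4 for Su113, 1 for Su140 and 5 for Su(var)3-9 (0.436%, 0.0645% and 8.36% of all genes). A fit to the 8 St7-8 libraries alone called 0 in Su113 (8 had an unadjusted p under 0.05), 0 in Su140 (9 had one) and 5 in Su(var)3-9, namely CanB, nrv3, Pex19, Smyd4-1 and FBgn0010549. It called 1, 0 and 1399 of all 12398 genes in those comparisons (0.00807%, 0% and 11.3%). Of all genes, 1697, 1418 and 3977 had an unadjusted p under 0.05 there. The lowest adjusted p of the 10 genes in that fit was 0.068 for Su113, 0.101 for Su140 and 0.016 for Su(var)3-9. With the stage score as a covariate, 7 passed for Su113 (4.33% of all genes), 4 for Su140 (0.573%) and 0 for Su(var)3-9, and in the last comparison 0 of all 12398 genes did (648 had an unadjusted p under 0.05). The stage score was 4.39 and 4.43 in the Su(var)3-9 libraries, against -1.44 and -3.99 in wm4h. No other library of either stage scored above -1.44, so that fit cannot tell stage from genotype in Su(var)3-9 at St7-8. DESeq2 called 8 of the genes for Su113, 9 for Su140 and 10 for Su(var)3-9, beside 11.2%, 7.95% and 34.3% of all genes.

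**Figure D2:**
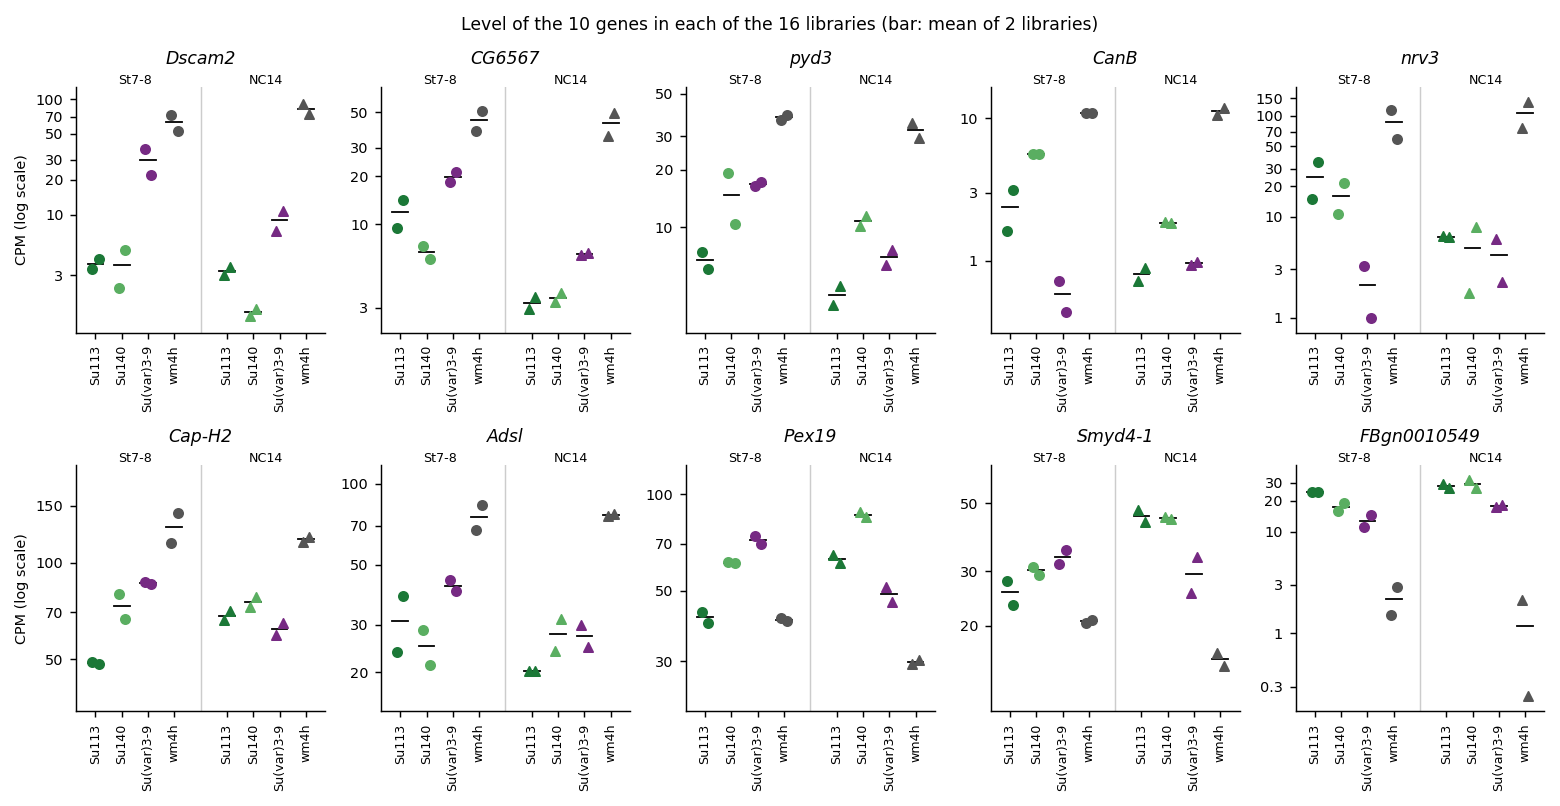
Level of each of the 10 genes in CPM (log axis) in all 16 libraries, with St7-8 as circles on the left and NC14 as triangles on the right of each panel; a bar marks the mean of the 2 libraries of a group. The 7 genes from Dscam2 to Adsl lie below both wm4h libraries in every mutant library at both stages, while Pex19 in Su113 at St7-8 (42.8 and 39.6 CPM) lies level with wm4h (40.9 and 40.2 CPM).

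Dscam2 (FBgn0265296, 3L:7159199-7189931 on the minus strand in dm6) encodes an immunoglobulin-superfamily adhesion molecule that lets neurites of like cells recognise and avoid each other. At St7-8 it read 3.39 and 4.13 CPM in Su113, 2.32 and 4.96 CPM in Su140 and 37.1 and 22.0 CPM in Su(var)3-9, against 72.1 and 53.3 CPM in wm4h. At NC14 it read 3.03 and 3.54 CPM in Su113, 1.34 and 1.53 CPM in Su140 and 7.28 and 10.8 CPM in Su(var)3-9, against 90.5 and 73.9 CPM in wm4h. Every mutant library was below every wm4h library, and the Su113 and Su140 libraries were below those of Su(var)3-9. The gene fell 16.7-fold in Su113 at St7-8 (log2 fold change -4.06 ± 0.39 SE, adjusted p = 0.000757) and 17.2-fold in Su140 (-4.11 ± 0.40, adjusted p = 0.000735). Both calls held with each of 4 libraries left out. It fell 2.12-fold in Su(var)3-9 (-1.08 ± 0.35, adjusted p = 0.0407), a call that ended with any library left out: the adjusted p was 0.053 without Su(var)3-9 replicate 1, 0.248 without replicate 2, 0.163 without wm4h replicate 1 and 0.0898 without wm4h replicate 2. That call also ended under RLE scaling (relative log expression, adjusted p = 0.0593).

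The difference between the mutants was itself past the test for Dscam2. Dscam2 was lower in Su113 than in Su(var)3-9 by 7.88-fold at St7-8 (log2 difference -2.98 ± 0.38, adjusted p = 0.000344, among 35.9% of all genes that differed) and lower in Su140 than in Su(var)3-9 by 8.12-fold (-3.02 ± 0.38, adjusted p = 0.000841, among 23.6% of all genes). Su113 and Su140 differed by 0.04 on the log2 scale (95% interval -0.73 to 0.82, adjusted p = 0.975). The gene most like Dscam2 across the 16 libraries was snRNA:U2:34ABa, a copy of the U2 spliceosomal RNA, with a Pearson correlation of log2 CPM of 0.96. This gene also stood low in all mutants at NC14, at 0.179 CPM in Su113, 0.185 CPM in Su140 and 1.65 CPM in Su(var)3-9, against 13.1 CPM in wm4h. Its group means at St7-8 were 0.161, 0.239 and 4.05 CPM in those mutants, against 19.2 CPM in wm4h. U2 is a multicopy family, so the split of its reads among copies is uncertain.

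nrv3 (FBgn0032946, 2L:21380000-21393319, plus strand) encodes a beta subunit of the Na,K-ATPase, the pump that keeps the sodium and potassium gradients of the cell, and is used in neurons. Its St7-8 levels were 14.9 and 34.8 CPM in Su113, 10.6 and 21.7 CPM in Su140 and 3.24 and 0.995 CPM in Su(var)3-9, against 115 and 59.3 CPM in wm4h. Its NC14 levels were 6.47 and 6.26 CPM in Su113, 1.77 and 8.00 CPM in Su140 and 6.02 and 2.24 CPM in Su(var)3-9, against 76.4 and 138 CPM in wm4h. No mutant library overlapped wm4h at either stage, while Su113 and Su140 overlapped each other at both. Replicates lay far apart in every group at St7-8, and at NC14 in every group but Su113. In Su113 and Su140 the higher library was replicate 2 in both, the libraries with 447 and 412 CPM of Mhc. nrv3 fell in Su(var)3-9 at St7-8, 41.3-fold (log2 fold change -5.37 ± 0.90, adjusted p = 0.00179), and this call held with each library left out. In Su113 the log2 fold change was -1.81 ± 0.76 (95% interval -3.47 to -0.15, adjusted p = 0.171) and in Su140 -2.43 ± 0.78 (-4.13 to -0.73, adjusted p = 0.143). In DESeq2 the Su140 value passed, with an adjusted p of 0.0318. With the older-embryo score as a covariate, a choice made after the data were seen, the log2 fold change of nrv3 was -2.79 for Su113 and -2.97 for Su140 (adjusted p of 0.258 and 0.107).

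nrv3 was higher in Su113 than in Su(var)3-9 at St7-8 by 3.56 ± 0.83 on the log2 scale (adjusted p = 0.00679), and higher in Su140 than in Su(var)3-9 by 2.94 ± 0.81 (adjusted p = 0.0241). The lowest mutant for nrv3 was thus the one in which Dscam2 was the highest. With libraries left out in turn, the first difference was past the test in 3 of 4 cases and the other in 2 of 4, with adjusted p up to 0.0639 and 0.16.

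CanB (FBgn0010014, X:5332499-5334449, plus strand) encodes a regulatory B subunit of calcineurin, the calcium-dependent protein phosphatase that also acts at egg activation. At St7-8 it read 1.62 and 3.12 CPM in Su113, 5.57 and 5.64 CPM in Su140 and 0.721 and 0.438 CPM in Su(var)3-9, against 10.9 and 10.9 CPM in wm4h. At NC14 it read 0.722 and 0.883 CPM in Su113, 1.86 and 1.84 CPM in Su140 and 0.936 and 0.974 CPM in Su(var)3-9, against 10.5 and 11.8 CPM in wm4h. The order at St7-8 was Su(var)3-9, Su113, Su140 and wm4h from low to high, with no overlap between neighbours in it. CanB fell 18.7-fold in Su(var)3-9 (log2 fold change -4.23 ± 0.40 SE, adjusted p = 0.000185), with each library left out as well. It fell 4.60-fold in Su113 (-2.20 ± 0.37, adjusted p = 0.0105), a call that ended without wm4h replicate 2 (adjusted p = 0.09). In Su140 the log2 fold change was -0.95 ± 0.35 (95% interval -1.72 to -0.19, adjusted p = 0.19). CanB was higher in Su113 than in Su(var)3-9 by 2.03 ± 0.37 on the log2 scale (adjusted p = 0.00194) and higher in Su140 than in Su(var)3-9 by 3.27 ± 0.39 (adjusted p = 0.000674), and both differences held with each library left out.

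CG6567 (FBgn0037842, 3R:10853374-10854451, minus strand) is predicted to encode an acyl-protein thioesterase, an enzyme class that removes fatty acids from proteins. Its St7-8 levels were 9.50 and 14.2 CPM in Su113, 7.32 and 6.07 CPM in Su140 and 18.3 and 21.1 CPM in Su(var)3-9, against 38.2 and 51.3 CPM in wm4h. Its NC14 levels were 2.95 and 3.49 CPM in Su113, 3.25 and 3.72 CPM in Su140 and 6.45 and 6.66 CPM in Su(var)3-9, against 35.8 and 49.5 CPM in wm4h. All mutant groups lay apart from wm4h and from each other at St7-8, with Su140 lowest. CG6567 fell 6.69-fold in Su140 (log2 fold change -2.74 ± 0.27, adjusted p = 0.000735), a call that held with each library left out. It fell 3.78-fold in Su113 (-1.92 ± 0.26, adjusted p = 0.0042) and 2.27-fold in Su(var)3-9 (-1.18 ± 0.25, adjusted p = 0.00625). The Su113 call ended without wm4h replicate 2 (adjusted p = 0.0516), and the Su(var)3-9 call ended without that library (0.0722) or without Su(var)3-9 replicate 1 (0.0566). CG6567 was lower in Su140 than in Su(var)3-9 by 1.56 ± 0.26 in size on the log2 scale (adjusted p = 0.00265), and lower in Su113 than in Su(var)3-9 by 0.74 ± 0.25 in size (adjusted p = 0.0388). The Su113 difference ended under RLE scaling (adjusted p = 0.0848) and in 3 of 4 fits that left out a library (adjusted p up to 0.197).

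pyd3 (FBgn0037513, 3R:7747913-7750079, minus strand) encodes beta-ureidopropionase, the last enzyme in the breakdown of uracil and thymine. At St7-8 it read 7.44 and 6.08 CPM in Su113, 19.3 and 10.4 CPM in Su140 and 16.4 and 17.2 CPM in Su(var)3-9, against 36.6 and 38.6 CPM in wm4h. At NC14 it read 3.96 and 4.95 CPM in Su113, 10.2 and 11.5 CPM in Su140 and 6.38 and 7.66 CPM in Su(var)3-9, against 35.0 and 29.2 CPM in wm4h. Su113 was the lowest group at both stages. pyd3 fell 5.56-fold in Su113 at St7-8 (log2 fold change -2.47 ± 0.28, adjusted p = 0.00172), with each library left out as well. It fell 2.54-fold in Su140 (-1.34 ± 0.27, adjusted p = 0.0405) and 2.24-fold in Su(var)3-9 (-1.16 ± 0.27, adjusted p = 0.0095). For Su140 the adjusted p was 0.0616 without wm4h replicate 1, 0.242 without wm4h replicate 2 and 0.202 without Su140 replicate 2, and the Su(var)3-9 call ended without wm4h replicate 2 (0.0651), Su(var)3-9 replicate 1 (0.0504) or replicate 2 (0.0557). pyd3 was lower in Su113 than in Su(var)3-9, with a log2 difference of -1.31 ± 0.27 (adjusted p = 0.00388), and the difference between Su113 and Su140 was -1.13 ± 0.27 (95% interval -1.72 to -0.54, adjusted p = 0.0527).

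Adsl (FBgn0038467, 3R:17018780-17021120, minus strand) encodes adenylosuccinate lyase, which acts at 2 steps on the way to AMP. Its St7-8 levels were 23.8 and 38.3 CPM in Su113, 28.6 and 21.2 CPM in Su140 and 43.8 and 39.9 CPM in Su(var)3-9, against 67.5 and 83.7 CPM in wm4h. Its NC14 levels were 20.2 and 20.1 CPM in Su113, 23.9 and 31.6 CPM in Su140 and 29.9 and 24.7 CPM in Su(var)3-9, against 76.2 and 77.1 CPM in wm4h. All mutant libraries were below wm4h. Adsl fell at St7-8 in Su113 (log2 fold change -1.28 ± 0.24, adjusted p = 0.0197), in Su140 (-1.60 ± 0.25, adjusted p = 0.0113) and in Su(var)3-9 (-0.85 ± 0.24, adjusted p = 0.0237). Without wm4h replicate 2 the adjusted p was 0.15, 0.101 and 0.178 in these mutants. The Su140 call also ended without Su140 replicate 2 (adjusted p = 0.104), and the Su(var)3-9 call without replicate 1 (0.083) or replicate 2 (0.126) of that mutant. With the stage score as a covariate the Su(var)3-9 value turned to 0.48 (adjusted p = 0.957), in a fit where 0 of all 12398 genes passed for that mutant.

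Cap-H2 (FBgn0037831, 3R:10761310-10766756, plus strand) encodes the kleisin subunit of condensin II, which compacts chromosomes and keeps homologous chromosomes from pairing in flies. At St7-8 it read 49.2 and 48.5 CPM in Su113, 79.9 and 66.6 CPM in Su140 and 86.9 and 85.6 CPM in Su(var)3-9, against 115 and 143 CPM in wm4h. At NC14 it read 66.1 and 70.5 CPM in Su113, 72.8 and 78.1 CPM in Su140 and 59.6 and 65.1 CPM in Su(var)3-9, against 116 and 120 CPM in wm4h. Its changes were the smallest among the 7 lower genes at NC14, with close replicates. Cap-H2 fell 2.64-fold in Su113 at St7-8 (log2 fold change -1.40 ± 0.15, adjusted p = 0.00131), with each library left out as well. It fell in Su140 (-0.82 ± 0.15, adjusted p = 0.0249) and in Su(var)3-9 (-0.58 ± 0.15, adjusted p = 0.0138). The Su140 call ended without wm4h replicate 2 (adjusted p = 0.186) or Su140 replicate 2 (0.207), and the Su(var)3-9 call without wm4h replicate 2 (0.126) or Su(var)3-9 replicate 2 (0.0773). Cap-H2 was lower in Su113 than in Su(var)3-9, with a log2 difference of -0.82 ± 0.15 (adjusted p = 0.00181) that held with each library left out.

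FBgn0010549 (2R:9390165-9395281, plus strand) encodes a transporter of the ABCC family, membrane pumps that move organic anions and conjugates out of cells. Its St7-8 levels were 24.2 and 24.4 CPM in Su113, 15.9 and 19.0 CPM in Su140 and 11.1 and 14.4 CPM in Su(var)3-9, against 1.53 and 2.84 CPM in wm4h. Its NC14 levels were 29.6 and 26.9 CPM in Su113, 31.8 and 26.9 CPM in Su140 and 17.4 and 18.1 CPM in Su(var)3-9, against 2.14 and 0.244 CPM in wm4h. All mutant libraries lay far above wm4h, and the mutant groups did not overlap each other at St7-8. The largest relative spread between replicates lay in wm4h at both stages. The gene rose 11.1-fold in Su113 at St7-8 (log2 fold change 3.48 ± 0.66, adjusted p = 0.0194) and 5.82-fold in Su(var)3-9 (2.54 ± 0.64, adjusted p = 0.0133). In Su140 the log2 fold change was 3.00 ± 0.65 (95% interval 1.59 to 4.41, adjusted p = 0.0505), and it passed without Su140 replicate 1 (adjusted p = 0.0418). The Su113 call ended without Su113 replicate 2 (adjusted p = 0.0595), wm4h replicate 1 (0.0696) or wm4h replicate 2 (0.123). The Su(var)3-9 call ended without Su(var)3-9 replicate 2 (0.0614), wm4h replicate 1 (0.0734) or wm4h replicate 2 (0.0604). None of the 3 mutant pairs differed past the test for FBgn0010549, with log2 differences of 0.48, 0.93 and 0.46 for Su113 against Su140, Su113 against Su(var)3-9 and Su140 against Su(var)3-9 (95% intervals -0.82 to 1.78, -0.37 to 2.24 and -0.84 to 1.76).

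Pex19 (FBgn0032407, 2L:12091822-12095250, plus strand) encodes the chaperone and import receptor that brings membrane proteins to peroxisomes. At St7-8 it read 42.8 and 39.6 CPM in Su113, 61.2 and 61 CPM in Su140 and 73.9 and 69.7 CPM in Su(var)3-9, against 40.9 and 40.2 CPM in wm4h. At NC14 it read 64.4 and 61.1 CPM in Su113, 88.0 and 84.7 CPM in Su140 and 51.3 and 46.0 CPM in Su(var)3-9, against 29.4 and 30.4 CPM in wm4h. Su113 overlapped wm4h at St7-8, the sole overlap among the 30 comparisons of these genes with wm4h at that stage. Pex19 rose in Su(var)3-9 at St7-8 (log2 fold change 0.83 ± 0.13, adjusted p = 0.00123), with each library left out as well. In Su113 the log2 fold change was 0.02 ± 0.13 (95% interval -0.25 to 0.30, adjusted p = 0.914) and in Su140 0.59 ± 0.13 (0.31 to 0.87, adjusted p = 0.0505). The Su140 value passed under RLE scaling (adjusted p = 0.019) and in DESeq2 (1.4e-11). Pex19 was lower in Su113 than in Su(var)3-9 (log2 difference -0.80 ± 0.13, adjusted p = 0.000991), also with each library left out. It was the sole one of the 10 genes past the test between Su113 and Su140 (-0.57 ± 0.13, adjusted p = 0.0402), where 2.40% of all genes were, and that call ended in 3 of 4 fits that left out a library (adjusted p up to 0.283).

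Smyd4-1 (FBgn0033427, 2R:9581761-9584545, minus strand) encodes a member of the SMYD family, proteins with a SET domain of the kind found in lysine methyltransferases, split by a MYND zinc finger. Its St7-8 levels were 27.9 and 23.4 CPM in Su113, 31.1 and 29.3 CPM in Su140 and 31.6 and 35.2 CPM in Su(var)3-9, against 20.4 and 20.9 CPM in wm4h. Its NC14 levels were 47.3 and 43.5 CPM in Su113, 45.2 and 44.4 CPM in Su140 and 25.5 and 33.4 CPM in Su(var)3-9, against 16.3 and 14.8 CPM in wm4h. No mutant library overlapped wm4h at either stage. Smyd4-1 rose in Su(var)3-9 at St7-8 (log2 fold change 0.69 ± 0.17, adjusted p = 0.0121), a call that ended without wm4h replicate 2 (adjusted p = 0.0687) or Su(var)3-9 replicate 2 (0.0815). In Su113 the log2 fold change was 0.31 ± 0.17 (95% interval -0.06 to 0.68, adjusted p = 0.258) and in Su140 0.55 ± 0.17 (0.18 to 0.91, adjusted p = 0.133), and DESeq2 put the adjusted p at 0.0206 and 0.00033.

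**Figure D3:**
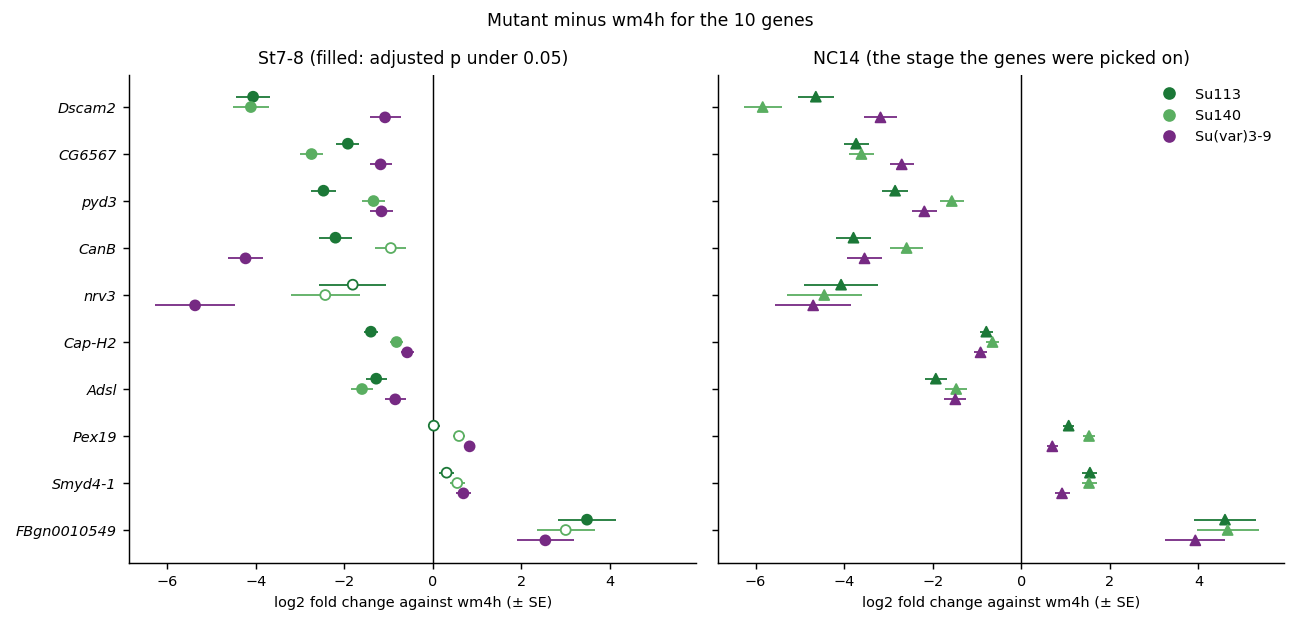
Fitted log2 fold change of each gene against wm4h (± SE) in the 3 mutants, at St7-8 (left, circles, filled where the adjusted p was under 0.05) and at NC14 (right, triangles, the comparison the genes were picked on). At St7-8 the largest decrease in Su(var)3-9 was that of nrv3 (-5.37), and in Su113 and Su140 that of Dscam2 (-4.06 and -4.11).

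Across the 3 mutant pairs at St7-8, 13 of the 30 differences passed the test: 1 between Su113 and Su140, 7 between Su113 and Su(var)3-9 and 5 between Su140 and Su(var)3-9. The shares of all genes were 2.40%, 35.9% and 23.6%. Relative to Su(var)3-9, Dscam2 and CG6567 were lower, and CanB and nrv3 higher, in both Jasper mutants. Under the stage score as a covariate 0 of the 30 passed, beside 0.895%, 0% and 0% of all genes in those pairs.

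Between the stages, which include the NC14 libraries and are given as a description, 5 of the 7 lower genes differed less in wm4h than in any mutant, Dscam2 and Cap-H2 being the exceptions. In wm4h the fitted log2 change of St7-8 against NC14 lay between -0.39 (Dscam2) and 0.91 (FBgn0010549), which is larger than its size in any mutant (-0.22, -0.75 and -0.48 in Su113, Su140 and Su(var)3-9). The median of the 7 lower genes was -0.02 in wm4h. The corresponding median was 0.63 for Su113, 0.94 for Su140 and 0.62 for Su(var)3-9. CG6567 averaged 11.8, 6.70 and 19.7 CPM at St7-8, against 3.22, 3.48 and 6.56 CPM at NC14, in Su113, Su140 and Su(var)3-9. CanB and nrv3 differed in direction: they averaged 0.579 and 2.12 CPM at St7-8 in Su(var)3-9, against 0.955 and 4.13 CPM at NC14. In Su113 the same genes averaged 2.37 and 24.8 CPM at St7-8, against 0.802 and 6.37 CPM at NC14. Pex19 averaged 41.2 and 61.1 CPM at St7-8 in Su113 and Su140, against 62.8 and 86.4 CPM at NC14, while in Su(var)3-9 it averaged 71.8 CPM at St7-8, against 48.7 CPM at NC14. As the stage markers show, wm4h St7-8 replicate 2 is near NC14, and its part in the small wm4h changes was not tested.

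Per kilobase of exon, the levels of the 10 genes in wm4h at St7-8 spanned 2 orders of magnitude. CG6567 was the highest at 44.0 CPM per kb, followed by Adsl (32.3), Cap-H2 (31.6), pyd3 (27.6), Pex19 (25.4) and nrv3 (18.3). CanB stood at 8.81, Smyd4-1 at 8.48, Dscam2 at 4.86 and FBgn0010549 at 0.485 CPM per kb. The exon lengths behind these levels ran from 1017 bases in CG6567 to 12907 bases in Dscam2.

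The genes that share a family or pathway with one of the 10 were called in both directions in 4 of the 6 comparisons with wm4h. Over 10 such lists, 71 of 74 genes were tested. At St7-8, 4 rose and 1 fell in Su113 (7.04% of them, beside 2.85% of all genes), 0 rose and 2 fell in Su140 (2.82%, beside 1.15% of all genes, with 18 at an unadjusted p under 0.05), and 12 rose and 18 fell in Su(var)3-9, which is 42.3% of them beside 24.8% of all genes. The 18 in Su140 stood beside 2273 of all 12398 genes with an unadjusted p under 0.05. The median log2 fold change of the listed genes was 0.09, -0.16 and 0.13, beside -0.09, -0.05 and 0.04 over all genes. At NC14, 1 rose and 1 fell in Su113 (0.936% of all genes passed), and 3 rose and 7 fell in Su140 (9.56%). For Su(var)3-9 at NC14 edgeR called 0 (0.331%), and 13 had an unadjusted p under 0.05, beside 1790 of all 12398 genes. With the stage score as a covariate all 30 calls in Su(var)3-9 at St7-8 ended (the lowest adjusted p was 0.892). Of those 30 values, 20 took the opposite sign. In that comparison 0 of all 12398 genes passed. The score set the Su(var)3-9 libraries at St7-8 apart from every other library, so that fit cannot tell stage from genotype there. In Su113 5 of 5 calls held and in Su140 1 of 2 (4.33% and 0.573% of all genes passed). When only St7-8 libraries were fitted, 17 of the 30 calls in Su(var)3-9 held, and 0 of those in Su113 and Su140. With the older-embryo score 28 of the 30 held, 1 of 5 in Su113 and 1 of 2 in Su140. In that fit 25.7%, 0.468% and 0.702% of all genes passed in those mutants.

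Calcineurin was the list in which most members moved with the picked one. In Su(var)3-9 at St7-8, where 15.9% of all genes were lower, 4 of 5 other calcineurin genes fell. They were the catalytic subunits CanA-14F and Pp2B-14D, the second B subunit CanB2 and the regulator sra, all 4 named after their values were seen. The median log2 fold change of the list was -2.95, beside 0.04 over all genes. Pp2B-14D averaged 7.71 ± 3.89 CPM in Su(var)3-9 and 59.4 ± 15.8 CPM in wm4h (SD, n = 2 each; log2 fold change -2.95 ± 0.44, adjusted p = 0.00104 in edgeR), and sra averaged 21.8 ± 4.97 CPM in Su(var)3-9 and 112 ± 55.6 CPM in wm4h (-2.37 ± 0.35, adjusted p = 0.000939). All 4 calls held whichever library was left out, but with the stage score as a covariate they were lost, with log2 fold changes of -1.67 for CanA-14F, -0.12 for Pp2B-14D, -0.97 for CanB2 and 0.80 for sra (adjusted p from 0.92 to 1). In the other 5 comparisons with wm4h, edgeR called 0 of the 5 genes, and 0 to 2 of them had an unadjusted p under 0.05. The cellularization genes also differed in Su(var)3-9 at St7-8, at 70.7 and 71.3 CPM against 1680 and 5290 CPM in wm4h, and they enter that score. With that score in the fit, 0 of all 12398 genes passed in that comparison. With the older-embryo score as a covariate in edgeR all 4 calls held (adjusted p from 0.00142 to 0.00181), where 25.7% of all genes passed. They also held with only St7-8 libraries fitted (adjusted p from 0.0201 to 0.0244), where 11.3% of all genes passed.

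For the Na,K-ATPase, nrv1, another beta subunit, fell with nrv3 in Su(var)3-9 at St7-8 (log2 fold change -2.76 ± 0.43, adjusted p = 0.00128), while nrv2 rose (1.43 ± 0.40, adjusted p = 0.0226). The nrv2 call ended in 3 of 4 fits with a library left out, with an adjusted p of 0.208 without wm4h replicate 2. Among the Dscam paralogues, Dscam4 rose in that mutant at St7-8 (0.83 ± 0.24, adjusted p = 0.0266), opposite to Dscam2, but passed in 1 of 4 fits with a library left out (adjusted p up to 0.233). Dscam1 fell in Su140 at NC14 (-1.32 ± 0.33, adjusted p = 0.0286) and Dscam4 rose in Su113 at NC14 (1.31 ± 0.25, adjusted p = 0.0333), and each passed in 0 of 4 such fits (adjusted p up to 0.175 and 0.268).

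Among the ABCC transporters, Mrp4 moved opposite to FBgn0010549 in both Jasper mutants. At St7-8 it averaged 22.2 ± 4.98 CPM in Su113 and 25.1 ± 12.4 CPM in Su140, against 126 ± 28.4 CPM in wm4h (SD, n = 2 each). Mrp4 fell in both, Su113 (log2 fold change -2.50 ± 0.37 SE, adjusted p = 0.00615) and Su140 (-2.33 ± 0.37, adjusted p = 0.0136). Those calls ended without Su113 replicate 2 (adjusted p = 0.0891) and without wm4h replicate 2 (0.0528). At NC14 it had a log2 fold change of -1.74 ± 0.36 in Su113 (adjusted p = 0.0478) and of -2.10 ± 0.37 in Su140 (adjusted p = 0.00783). The Su113 call at NC14 ended under RLE scaling (0.0545) and in all 4 fits with a library left out (up to 0.447), and the Su140 call in 2 of 4 (up to 0.079). In Su(var)3-9 at St7-8, 6 of the 13 ABCC genes fell and 0 rose (15.9% of all genes were lower), led by Cftr (-2.65 ± 0.31, adjusted p = 0.000352) and rdog (-1.67 ± 0.24, adjusted p = 0.000818). Both calls ended with the stage score as a covariate (0.24 and 0.47, adjusted p 0.985 and 0.939), where 0 of all 12398 genes passed. They held in edgeR with the older-embryo score (adjusted p 0.000429 and 0.00107) and with only St7-8 libraries fitted (0.016 and 0.0212).

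In purine synthesis, the pathway of Adsl, 1 of 8 tested genes rose and 2 fell in Su(var)3-9 at St7-8 (37.5% of them, beside 24.8% of all genes). The median log2 fold change of the list there was 0.08. The genes that fell were bur, which encodes GMP synthetase (-2.14 ± 0.27, adjusted p = 0.00048), and Pfas (-1.31 ± 0.22, adjusted p = 0.0019), an earlier enzyme of the pathway. Pfas also fell in Su140 (-1.05 ± 0.22, adjusted p = 0.0458), a call lost under RLE scaling (0.0676) and in 3 of 4 fits with a library left out (up to 0.338). ras, which encodes IMP dehydrogenase, rose in Su113 at St7-8 (1.96 ± 0.31, adjusted p = 0.00923), a call lost without wm4h replicate 2 (0.115). Of the other condensin genes, glu, an SMC subunit common to both condensins, fell in Su(var)3-9 at St7-8 (-1.33 ± 0.23, adjusted p = 0.00202) and Cap-D3, of condensin II like Cap-H2, rose (1.27 ± 0.26, adjusted p = 0.00536), and both held with each library left out but took the opposite sign with the stage score (0.30 and -1.08). In the fit with the stage score 0 of all 12398 genes passed for Su(var)3-9 at St7-8. With the older-embryo score glu and Cap-D3 kept their calls (adjusted p 0.00111 and 0.00727 in edgeR). They also did with only St7-8 libraries fitted (0.0243 and 0.0422). Without a score, 38.5% of the peroxins and 30.8% of the SMYD genes tested were called in Su(var)3-9 at St7-8, beside 24.8% of all genes. Among the peroxins, 1 of 13 tested rose in Su113 at St7-8 (Pex11ab, 2.24 ± 0.45, adjusted p = 0.0261), where 2.85% of all genes passed. In Su(var)3-9 4 peroxins rose and 1 fell, with Pex3 the lowest p (-1.06 ± 0.23, adjusted p = 0.00705). Leaving out wm4h replicate 2 ended these calls of Pex11ab (0.187) and Pex3 (0.0809). Of 13 SMYD genes tested, 2 rose and 2 fell in Su(var)3-9 at St7-8, led by SmydA-1 (-1.06 ± 0.23, adjusted p = 0.00681) and Smyd5 (1.44 ± 0.32, adjusted p = 0.00799), and both calls ended without wm4h replicate 2 (0.0769 and 0.0761). In the pyrimidine list Dhod, an enzyme of synthesis and not of breakdown, fell in Su(var)3-9 at St7-8 (-1.13 ± 0.23, adjusted p = 0.00486, and 0.0604 without wm4h replicate 2), and CRMP, the dihydropyrimidinase 1 step before pyd3, fell in Su140 at NC14 (-1.58 ± 0.45, adjusted p = 0.0486, past the test in 0 of 4 fits with a library left out). The acyl-protein thioesterase Apt1 rose in Su(var)3-9 at St7-8 (0.70 ± 0.20, adjusted p = 0.0234, and 0.204 without wm4h replicate 2), while CG6567 fell.

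The 10 genes lie on 5 chromosome arms, 4 on 3R, 2 each on 2L and 2R, and 1 each on 3L and X, where 24.3%, 17.8%, 20.3%, 19.7% and 16.1% of the tested genes lie. Cap-H2 and CG6567 are 86.6 kb apart on 3R, and FBgn0010549 and Smyd4-1 are 186.5 kb apart on 2R. Each pair moved in 1 direction at NC14. Of the genes lying wholly between Cap-H2 and CG6567, which leaves out TfIIFbeta, a gene that overlaps the end of Cap-H2 and extends towards CG6567, edgeR called 0 of 14 tested genes in each NC14 comparison, with 1, 3 and 0 at an unadjusted p under 0.05 in Su113, Su140 and Su(var)3-9. Between FBgn0010549 and Smyd4-1 it called 0, 1 and 0 of 17, the call being Pdk, higher in Su140 and named after its value was seen. Adsl lies 1755.3 kb from the Su(var)3-9 locus, and Jasper is at least 13031.4 kb from any of the 10 genes.

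Of the 98 tested genes within 25 kb of one of the 10, the NC14 test was passed by 2 for Su113 (2.04%), 7 for Su140 (7.14%) and 1 for Su(var)3-9 (1.02%), beside 0.936%, 9.56% and 0.331% of all genes. TfIIFbeta, which encodes a subunit of the general transcription factor TFIIF, was the sole neighbour past it in all 3, lower by log2 fold changes of -1.16, -0.95 and -1.26. It is 1 of the 4 genes beyond the 10 that met the rule, so its NC14 values are a description as well. At St7-8 it fell in Su113 (-1.06, adjusted p = 0.0282), Su140 (-1.10, adjusted p = 0.0396) and Su(var)3-9 (-1.39, adjusted p = 0.00146). The Su113 and Su140 calls at St7-8 reached 0.05 and 0.0617 under RLE scaling, and each held in 2 of 4 fits with a library left out (up to 0.21 and 0.294). With the stage score as a covariate the adjusted p was 0.0238 for Su113, 0.0877 for Su140 and 0.97 for Su(var)3-9, and with only St7-8 libraries fitted it was 0.126, 0.148 and 0.016 in those mutants. TfIIFbeta runs opposite to Cap-H2 and overlaps its 3′ end by 135 bases, and asRNA:CR45016 overlaps Cap-H2 by 488 bases. CG6567 overlaps CG4565 by 271 bases, Smyd4-1 overlaps Nt5c by 87 bases, Pex19 overlaps CG6712 by 75 bases and lncRNA:CR44594 by 350 bases, and Adsl lies within the span of Pxd, each on the opposite strand. The libraries were made with a stranded kit, but the strand setting of the counting is not given in the sources used here, so the assignment of reads in these overlaps is uncertain.

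**Figure D4:**
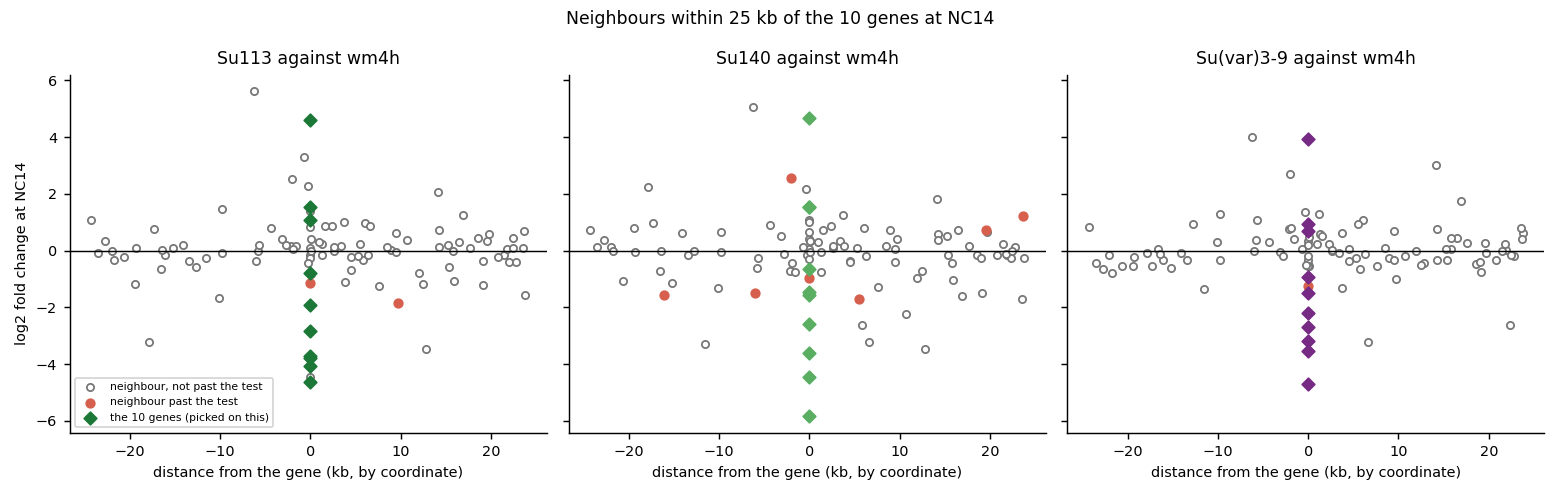
Log2 fold change at NC14 of the tested genes within 25 kb of one of the 10 genes, by distance from that gene in kb (negative towards lower coordinates, 0 for overlap), in Su113, Su140 and Su(var)3-9 against wm4h. Filled circles are neighbours past the test (2, 7 and 1), open circles are the other neighbours, and diamonds are the 10 genes themselves, which were picked on these values.

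The threshold of the rule left 4 other genes inside it, snRNA:U2:34ABa, TfIIFbeta, CG1598 and FBgn0037636, the last of which has no symbol in the annotation. By the largest adjusted p over the 3 NC14 comparisons, Smyd4-1 and FBgn0037636 lay just inside at 0.0487, tied with Pex19, nrv3 and CG1598, and l(2)41Ab (0.0521) and CG32243 (0.0547) lay just outside. l(2)41Ab averaged 6.38, 4.25 and 5.33 CPM at NC14 in Su113, Su140 and Su(var)3-9, against 17.6 CPM in wm4h, and CG32243 averaged 23.4, 21.3 and 44.3 CPM in these mutants, against 13 CPM in wm4h. FBgn0037636 averaged 1420, 1810 and 1450 CPM, against 2940 CPM in wm4h.

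The genes whose levels followed those of the other 9 most closely over the 16 libraries were Oseg5 for CG6567 (Pearson correlation of log2 CPM 0.938), GstE9 for pyd3 (0.894), CG6154 for CanB (0.841), Cyp317a1 for nrv3 (0.947) and Kebab for Cap-H2 (0.879). For Adsl it was CG30010 (0.91), for Pex19 Nop10 (0.927), for Smyd4-1 CG10730 (0.919) and for FBgn0010549 CG7214 (0.903). These are descriptions over libraries that share genotype, stage and pool. Among the 10 genes, CG6567 and Adsl were the most alike (0.93).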

How the data were processed

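The authors deposited 1 table of raw read counts per gene for 16 libraries, made from total RNA with the TruSeq Stranded Total RNA kit per the labels. Per the submitters' processing notes the build was dm6 and DESeq2 was used; the aligner, counter, annotation and strand setting are not given in the sources used here. Symbols, positions and exon lengths came from Ensembl release 115, whose coordinates are those of dm6, and 17626 of 17753 identifiers matched. Counts were scaled by TMM and filtered with filterByExpr, which kept 12398 genes, and tested in edgeR 4.0.16 (R 4.3.3) by quasi-likelihood F tests over 8 group means and all 16 libraries, two-sided, with Benjamini-Hochberg adjustment over all genes tested and a threshold of 0.05. CPM used TMM-scaled library sizes; correlations used log2 CPM with a prior count of 2. The floor of 3 counts and the standard errors cover counting error and the spread between pools only. The method was also run on simulated counts with the same spread for every gene, which does not show how it performs on libraries that differ in stage. Alternatives were RLE scaling, DESeq2 1.42.0, no filter, fits to 1 stage, a replicate block, marker scores as covariates and leaving out each library.

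The 10 genes, the lists of relatives and the markers were chosen with earlier results of these data known. The text names the 10 genes; for each, the gene most correlated with it; in each list up to 2 genes past the threshold per comparison; neighbours past it in all 3 NC14 comparisons; and the 2 genes just inside and just outside the threshold. Promoter sequences were not analysed here.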

Additional observations from a re-analysis of the deposited data

How the results depend on the processing

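The counts of the 10 genes past the test at St7-8 were 7 in Su113, 5 in Su140, 10 in Su(var)3-9 and 13 over the 3 mutant pairs. DESeq2 gave 9 in Su140 (7.95% of all genes). The fit to the 8 St7-8 libraries alone gave 0 in Su113, 0 in Su140 and 5 for Su(var)3-9 (0.00807%, 0% and 11.3% of all genes). With the stage score as a covariate the count was 0 in Su(var)3-9 (0% of all genes) and 0 over the pairs (0.895%, 0% and 0%). The older-embryo score as a covariate was added after the data were seen. It gave 3 for Su113, 3 for Su140 and 10 for Su(var)3-9, beside 0.468%, 0.702% and 25.7% of all genes. Leaving out wm4h St7-8 replicate 2 and Su140 St7-8 replicate 2 together was also added then. Leaving out 1 library gave 3 to 7 in Su113, 2 to 6 in Su140, 3 to 8 in Su(var)3-9 and 8 to 14 over the pairs; a group left with 1 library was assumed to vary like the others. The lowest counts against wm4h came without wm4h St7-8 replicate 2 (3, 2 and 3), and Su140 also had 2 without its replicate 2. The causes were not tested. Adsl in Su(var)3-9 at St7-8, called at -0.85, changed sign with the stage score and was not called there (0.48, adjusted p = 0.957); the other sign changes of the 10 genes at St7-8 were of values not called in either fit. RLE scaling moved the median log2 fold change of all genes by 0.17 in Su113 and 0.14 in Su140 at St7-8, and all 10 genes kept their sign relative to wm4h under it. At NC14 all 10 genes kept their signs in all 9 alternatives run for each comparison, a description since they were picked there. FBgn0010549 moved most (3.72 to 6.83 in Su113), with 2.14 and 0.244 CPM in the wm4h libraries. Their NC14 calls were not all kept. With the stage score 9 passed for Su113, 4 for Su140 and 4 for Su(var)3-9 (1.18%, 0.242% and 0.129% of all genes). With a replicate block 8, 10 and 4 did (0.444%, 6.4% and 0.105%). RLE scaling gave 9, 10 and 10 (1.1%, 10.4% and 0.484%) and no filter 10, 10 and 8 (0.808%, 6.74% and 0.284%). The fit to the 8 NC14 libraries alone kept all 10 (3.16%, 19.6% and 2.88%). The replicate numbers share only a number: correlations of deviations between same-numbered libraries ran from -0.5 to 0.33 at St7-8 and from -0.07 to 0.08 at NC14. With the replicate number as a block the St7-8 counts were 6 for Su113, 3 for Su140 and 9 for Su(var)3-9 (0.992%, 0.548% and 21.5% of all genes). Over the pairs the count was 10. The shares of all genes were 0.871% for Su113 against Su140, 30.7% for Su113 against Su(var)3-9 and 16.9% for Su140 against Su(var)3-9. Planned promoter motifs were not run. With 2 libraries a group, and replicates 0.92 to 1.55 apart at St7-8 (SD of log2 differences over genes), the number of pools limits the precision.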
